A study of Homo sapiens with 6 samples.

Results

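The MYC and MAX network of transcription factors was examined in BT549 cells, a human breast cancer cell line. Its members were taken by gene symbol: MYC, MYCN and MYCL, their partner MAX, and the MAX-binding antagonists MXD1, MXD3, MXD4, MXI1, MNT and MGA. All 10 were found among the 19923 genes of the deposited table. RNA sequencing covered 3 libraries of cells whose treatment is labelled ENL and 3 libraries of control cells. All 6 libraries are of this single line, and the labels give neither a dose, a time or a vehicle nor what ENL stands for. Whether the libraries within a group stem from separate cultures is not said, and the p-values therefore cover only the spread among these 6 samples, possibly a technical one.

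MYC proteins bind DNA as dimers with MAX, mostly at the E-box CACGTG, and raise the transcription of genes for growth, ribosome assembly and metabolism. The MXD proteins, MXI1, MNT and MGA compete with MYC for MAX. MXD proteins, MXI1 and MNT bring the SIN3 corepressor and histone deacetylases to the same sites, while MGA acts within a variant Polycomb complex. In breast cancer MYC is often amplified or highly expressed, and cells that stop dividing commonly exchange MYC for MXD proteins. A second branch built on MLX, with the glucose-sensing factors MLXIP and MLXIPL, shares several MXD partners.

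MYCL, MNT and MXD3 were higher in ENL-treated cells, by 3.21-fold, 1.58-fold and 1.67-fold, and MXD4 was lower (0.784-fold). These 4 of 9 tested members were called in edgeR's quasi-likelihood test at an adjusted p below 0.05, beside 38.4% of all 14086 tested genes, so the share called is close to the background. The share of all genes called higher was 20%, and that called lower was 18.4%. MYC itself, MAX, MXD1, MXI1 and MGA were not called, and MYCN was too low to test. MAX, MXD1 and MXI1 were each called higher once a single library was left out (ENL library 3, control library 1 and ENL library 2), and MYC changed direction, still uncalled, without control library 3.

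The 6 libraries held 74457932 to 85310759 estimated counts. From the spacing of low values, 1 sequenced fragment was taken to be worth about 4 units. Of 11 marker genes listed for BT549 as a mesenchymal breast line, 10 were at the listed level: VIM, FN1, ZEB1, CDH2, SPARC and TWIST1 ranged from 3.34 to 6289 CPM (counts scaled to library size), and CDH1, EPCAM, ESR1 and PGR stayed at or below 0.966 CPM, with PGR at 0 throughout. CDH2 was the lowest of those listed as present, at 3.34 to 8.90 CPM, and no cut-off for presence was set. GATA3, listed as absent, stood at 22.6 to 38.6 CPM. Of 6 markers of blood, endothelial, liver and glial cells, VWF reached 5.45 to 8.54 CPM and the others at most 1.20 CPM. A second principal component, carrying 14.3% of the variance, separated ENL library 3 (-55.8) from ENL libraries 1 and 2 (22.1 and 26.3).

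**Figure D1:**
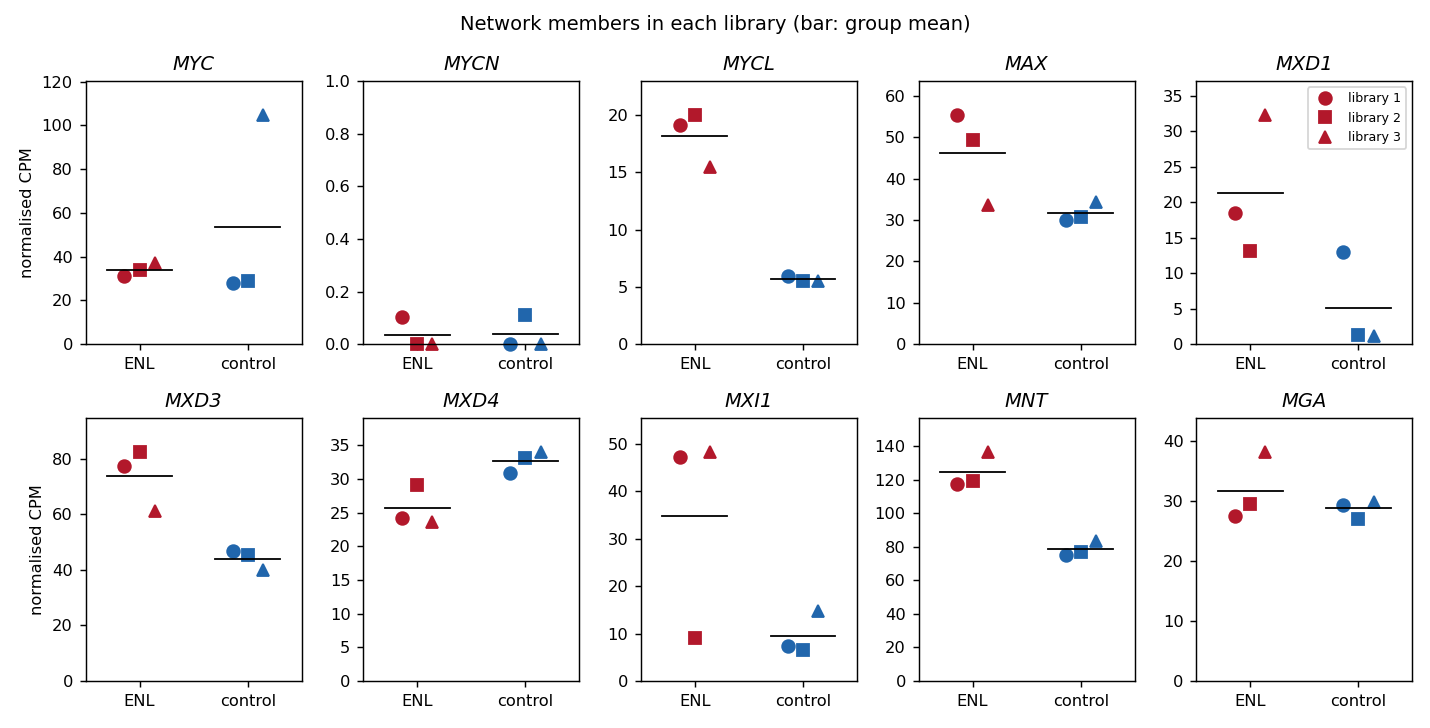
Normalised CPM of the 10 members in each library, ENL left and control right, with symbols for libraries 1 to 3 and a bar at the group mean. MYCL, MNT and MXD3 lie wholly higher in ENL and MXD4 wholly lower, while control library 3 for MYC (105 CPM), control library 1 for MXD1 (13.0 CPM) and ENL library 2 for MXI1 (9.10 CPM) lie far from their own groups.

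The promoter windows of the 4 called members are shown because 2 of them hold the E-box that this network binds. Each window runs 5′ to 3′ from 250 bases before to 50 bases after the annotated start (RefSeq, GRCh38.p14), and capitals mark CACGTG or its variant CACGCG, searched on both strands (the reverse of CACGCG is CGCGTG, and neither form overlaps CACGTG in these windows).
MYCL, chr1:39901868-39902167, minus strand: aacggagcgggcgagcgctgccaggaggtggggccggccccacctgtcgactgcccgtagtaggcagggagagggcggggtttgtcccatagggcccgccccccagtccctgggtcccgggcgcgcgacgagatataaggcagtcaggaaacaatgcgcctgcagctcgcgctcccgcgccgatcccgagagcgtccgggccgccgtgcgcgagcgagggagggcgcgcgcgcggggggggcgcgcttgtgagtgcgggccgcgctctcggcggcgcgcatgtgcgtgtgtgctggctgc
MNT, chr17:2401011-2401310, minus strand: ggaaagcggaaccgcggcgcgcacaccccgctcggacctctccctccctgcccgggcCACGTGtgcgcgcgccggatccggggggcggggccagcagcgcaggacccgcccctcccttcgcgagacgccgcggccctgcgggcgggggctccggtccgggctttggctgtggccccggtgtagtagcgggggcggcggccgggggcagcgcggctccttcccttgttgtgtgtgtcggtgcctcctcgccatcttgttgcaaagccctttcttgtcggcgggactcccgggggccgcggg
MXD3, chr5:177312703-177313002, minus strand: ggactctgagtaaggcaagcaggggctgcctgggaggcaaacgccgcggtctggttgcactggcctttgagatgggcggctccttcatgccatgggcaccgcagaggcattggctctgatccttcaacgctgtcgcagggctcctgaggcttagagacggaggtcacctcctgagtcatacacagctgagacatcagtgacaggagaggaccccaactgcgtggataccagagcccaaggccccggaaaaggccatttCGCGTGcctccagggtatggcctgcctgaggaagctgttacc
MXD4, chr4:2262060-2262359, minus strand: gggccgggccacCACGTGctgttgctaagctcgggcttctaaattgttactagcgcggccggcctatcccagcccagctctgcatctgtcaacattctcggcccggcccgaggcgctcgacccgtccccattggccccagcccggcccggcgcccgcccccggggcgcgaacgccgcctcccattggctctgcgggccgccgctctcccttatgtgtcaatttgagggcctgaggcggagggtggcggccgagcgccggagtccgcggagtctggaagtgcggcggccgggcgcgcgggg

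CACGTG begins at position -193 in MNT and -238 in MXD4, counted from 0 at the start base, and MXD3 has CGCGTG at position 8. RefSeq windows were available for 9 of the 10 members, all but MYC, 14 windows in all. CACGTG was in those of 2 members, MNT and MXD4, and the promoter of MYC was not searched. Counted by window, CACGTG was in 2 of these 14 and in 7.26% of all 35116 promoter windows. CACGCG or its reverse was in a window of 3 members, MXD3, MXI1 and MGA. MXI1 and MGA also have windows without it. Counted by window, it was in 11.4% of all windows. MNT was higher and MXD4 lower in ENL, so the members that carry CACGTG differed in direction. Among tested genes with CACGTG in a window, 312 of 1352 were higher and 219 lower, or 39.3% called, with a median log2 fold change of 0.01. Of those without it, 1907 of 9676 were higher and 1796 lower, with a median of -0.02. A match to these letters does not show binding.

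MYC (chromosome 8, 127735434 to 127741434, plus strand, GRCh38), the founding member, had 31.0, 33.8 and 37.0 CPM in ENL libraries 1, 2 and 3, against 27.8, 28.9 and 105 CPM in control libraries 1, 2 and 3. In these values the ENL libraries all lay above the lower 2 control libraries and far below control library 3. The log2 fold change was -0.66 ± 0.55 (SE, n = 3 per group; adjusted p = 0.387), with a 95% interval from -2.02 to 0.70. Without control library 3 it turned to 0.26 (adjusted p = 0.176), and MYC was not called in either case. Scaled by library totals alone, ENL libraries 1, 2 and 3 had 28.5, 30.5 and 36.05 CPM of MYC. Control libraries 1 and 2 had 30.1 and 30.6 CPM on that scale, so that ENL library 1 lay below both.

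Whether reads were assigned to genes alike in every library cannot be settled from the table, which limits the single-library values of MYC, MXD1 and MXI1. Control library 3 held 3.62 times as much MYC as the next control library, a ratio of 3.61 to 3.69 under the other scalings. Among 10503 genes averaging 5 CPM or more, 10 in that library, or 0.0952%, lay at least as far above both other controls, MYC included. The corresponding number in any library was 6 to 34. The others in control library 3 were SPECC1L-ADORA2A, APC, MDM4, ARPIN-AP3S2, CBL, KCTD20, JRK, AC011448.1 and ACVR1B, chosen after their values were seen. Among them the read-through gene SPECC1L-ADORA2A had 16.4, 0 and 12.7 CPM in ENL, against 0, 0 and 24.9 CPM in control, and ARPIN-AP3S2, another, had 31.5, 24.3 and 0 CPM in ENL, against 0.0114, 2.48 and 25.7 CPM in control. MDM4, an inhibitor of p53, had 8.79, 9.92 and 10.96 CPM in ENL, against 6.86, 5.23 and 76.4 CPM in control.

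Genes that MYC is known to activate did not stand higher in control library 3. There the median of 61 such genes lay 0.003 below the mean of the other control libraries (-0.003 on the log2 scale), and 29 of 61 lay above it, beside a median of 0.0023 for all tested genes. For MYC the same difference was 1.88. Of 14 genes that MYC is known to repress, 3 lay above the other controls in that library, with a median of -0.03. POU5F1B, the single other gene of the table within 2 Mb of MYC, had 0, 0.0147 and 0 CPM in ENL and 0.103, 0.160 and 0.377 CPM in control, too little to compare.

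**Figure D2:**
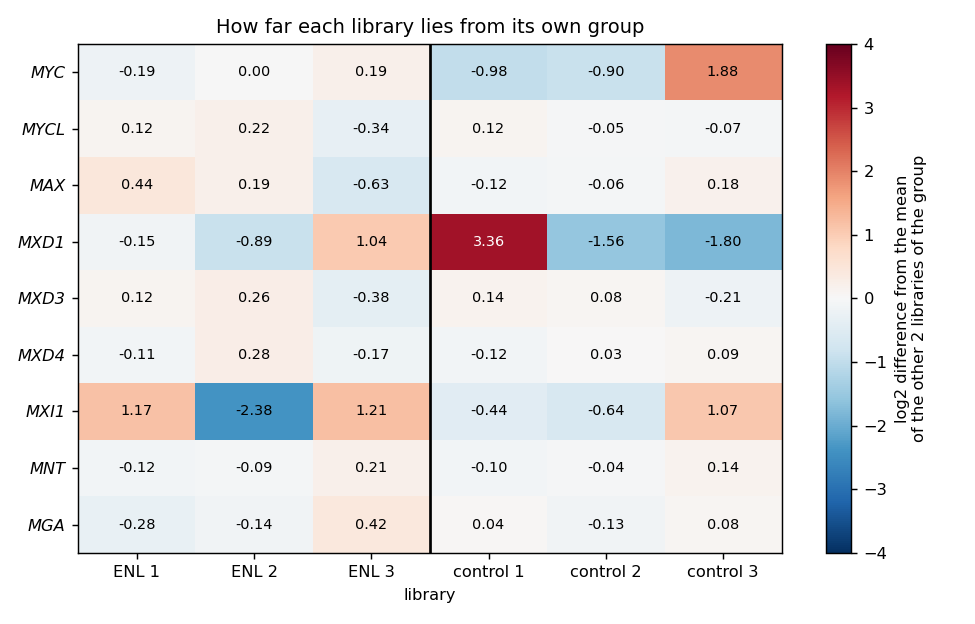
Log2 difference of each library from the mean of the other 2 libraries of its group, for the 9 tested members, ENL libraries left of control libraries. The strongest colours are MXD1 in control library 1 (3.36), MXI1 in ENL library 2 (-2.38) and MYC in control library 3 (1.88).

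The 5 genes whose pattern within the groups was most like that of MYC were AC002310.4, KCTD10, BHLHE40, SEC24C and USF1. Their Pearson correlations with MYC, taken on log2 CPM after removing each group's mean, were 0.994 to 0.999 over 6 libraries, which share control library 3 as their highest control. KCTD10, an adaptor of a ubiquitin ligase, had 58.4, 60.2 and 63.9 CPM in ENL, against 26.3, 26.1 and 46.4 CPM in control. USF1, another E-box-binding factor, had 46.3, 45.7 and 47.4 CPM in ENL, against 43.7, 43.5 and 55.7 CPM in control. Both had their highest control value in library 3. AC002310.4 had 0.9225, 1.13 and 1.37 CPM in ENL, against only 0, 0 and 0.247 CPM in control, so its likeness to MYC rests on very low values.

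MYCL (chromosome 1, 39895426 to 39902256, minus strand), the family member first found in lung cancer, had 19.1, 20.0 and 15.4 CPM in ENL, against 5.98, 5.52 and 5.48 CPM in control. Every ENL library lay above every control library. It rose by 1.68 ± 0.14 on the log2 scale (adjusted p = 0.000257), and the lowest and highest values with a library left out were 1.61 and 1.80. Exons of the antisense gene AL033527.2 share 226 bases with MYCL. MYCN (chromosome 2, 15940564 to 15947007, plus strand), the family member of neural tissue, had 7, 0 and 0 units in ENL and 0, 9 and 0 units in control. These lie under the 12 units taken as 3 fragments, so that MYCN was not detectable at this depth.

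MAX (chromosome 14, 65006174 to 65102695, minus strand), the shared partner of the other members, had 55.3, 49.3 and 33.7 CPM in ENL, against 29.9, 30.7 and 34.4 CPM in control. ENL libraries 1 and 2 lay above all controls and ENL library 3 within them. The log2 fold change was 0.54 ± 0.18 (adjusted p = 0.0543), just outside the threshold. It was 0.74 without ENL library 3 (adjusted p = 0.00274), and DESeq2's Wald test gave an adjusted p of 0.0224 with all libraries.

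MXD3 (chromosome 5, 177301461 to 177312757, minus strand), an antagonist known in mouse from dividing cells in S phase, had 77.3, 82.4 and 61.3 CPM in ENL, against 46.8, 45.5 and 39.8 CPM in control. The groups did not overlap. It rose by 0.74 ± 0.13 on the log2 scale (adjusted p = 0.00518). RAB24 shares 926 exon bases on the same strand and PRELID1 1158 on the opposite strand. RAB24 alone rose by 0.71 on the log2 scale (adjusted p = 0.00404), close to the rise of MXD3. MXD3 and RAB24 summed rose by 0.73 (adjusted p = 0.00383), a value that cannot tell them apart.

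MXD4 (chromosome 4, 2247432 to 2262294, minus strand), an antagonist of resting and differentiated cells, had 24.3, 29.1 and 23.6 CPM in ENL, against 31.0, 33.1 and 34.0 CPM in control. All ENL libraries lay below all controls, by a small margin. The log2 fold change was -0.35 ± 0.11 (adjusted p = 0.0446). The call was lost without control library 1, 2 or 3 or ENL library 1 or 3 (adjusted p = 0.0782, 0.122, 0.140, 0.127 and 0.0954) and without a filter on low counts (0.0534).

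MXD1 (chromosome 2, 69897688 to 69942945, plus strand), an antagonist induced on differentiation, had 18.5, 13.1 and 32.2 CPM in ENL, against 13.0, 1.25 and 1.11 CPM in control. Control library 1 was level with the lowest ENL library, and the other controls were far lower. The log2 fold change was 2.06 ± 1.06 (adjusted p = 0.178), and 4.18 without control library 1 (adjusted p = 0.00411). Control library 1 stood 9.71-fold above the next control once 8 units were added to each value, and 4 of 10503 genes lay at least as far out there. SNRNP27, a splicing factor gene that shares 237 exon bases on the same strand, had 38.2, 20.4 and 33.3 CPM in ENL and 29, 28.0 and 25.2 CPM in control. The 2 genes summed gave 0.67 on the same scale (adjusted p = 0.116).

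MXI1 (chromosome 10, 110207605 to 110287365, plus strand), also called MXD2 and a relative of MXD1, had 47.3, 9.10 and 48.3 CPM in ENL, against 7.26, 6.61 and 14.7 CPM in control. ENL libraries 1 and 3 lay above all controls and ENL library 2 within them. Its log2 fold change was 1.87 ± 0.69 (adjusted p = 0.0798). Without ENL library 2 it was 2.33 (adjusted p = 0.0106), and DESeq2's Wald test gave an adjusted p of 0.0337 with all libraries. ENL library 2 lay 5.14-fold below the next ENL library once 8 units were added to each value. In it 28 of 10503 genes lay at least as far below, and the corresponding number in any library was 6 to 28. KLF10, a zinc finger repressor chosen after its values were seen, had a like pattern, with 165, 50.1 and 181 CPM in ENL against 18.4, 19.3 and 42.9 CPM in control.

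MNT (chromosome 17, 2384060 to 2401118, minus strand), the broadly expressed antagonist, had 117, 119 and 137 CPM in ENL, against 75.0, 77.1 and 83.6 CPM in control. Every ENL library lay above every control. It rose by 0.66 ± 0.09 on the log2 scale (adjusted p = 0.00187), and by 0.60 to 0.71 with a library left out. The antisense gene AC006435.1 shares 1065 exon bases with it, and whether counting used strand is not stated in the labels. MGA (chromosome 15, 41621224 to 41773081, plus strand), which also carries a T-box domain, had 27.6, 29.5 and 38.2 CPM in ENL, against 29.4, 27.1 and 29.9 CPM in control. Its log2 fold change was 0.14 ± 0.14 (adjusted p = 0.462; 95% interval from -0.19 to 0.47) and turned to -0.06 under scaling by library totals.

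**Figure D3:**
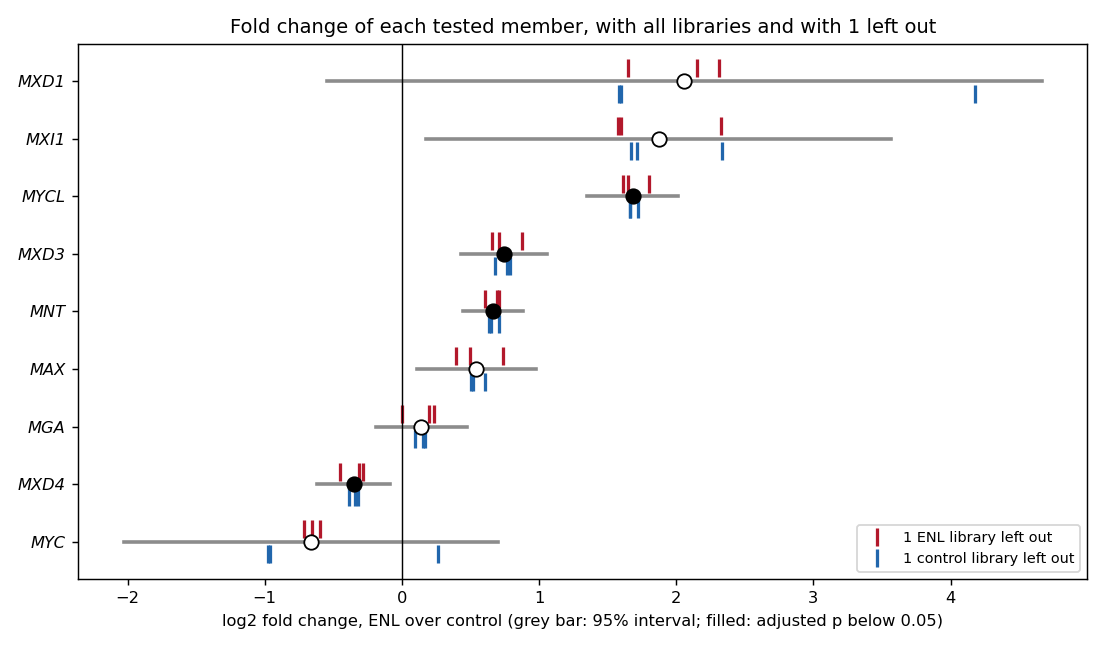
Log2 fold change (ENL over control) of the 9 tested members as circles, filled where called, with 95% intervals in grey and ticks for fits with an ENL (red) or control (blue) library left out. MYCL (1.68), MXD3 (0.74) and MNT (0.66) have narrow intervals right of 0, while MXD1 and MYC move to 4.18 and 0.26 without a single control library.

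ENL libraries lay wholly above the controls for 4 of the 9 tested members (MYCL, MXD1, MXD3 and MNT) and wholly below for MXD4, beside 54% of all tested genes with groups that did not overlap. MXD1 parted by a narrow margin and overlapped under upper-quartile scaling, with 12.8 CPM in ENL library 2 against 13.3 CPM in control library 1, and under library totals, with 11.8 against 14.01 CPM. The other 4 were apart under all 4 scalings. The median log2 fold change of the 9 was 0.66, and -0.02 over all tested genes. Under scaling by library totals the median of all genes was -0.23 and under upper-quartile scaling -0.11. MYCL, MNT and MXD3 were higher and MXD4 lower under every scaling tried.

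Per kilobase of the longest coding transcript, MXD3 had the highest mean in ENL, with 32.5 ± 4.85 CPM per kb (SD, n = 3), and had 19.4 ± 1.65 in control. MNT followed in ENL with 24.9 ± 2.13 CPM per kb, and had 15.7 ± 0.894 in control. MAX and MYC were next and close to each other in ENL, at 14.6 ± 3.53 and 14.4 ± 1.27 CPM per kb. In control MAX had 10.03 ± 0.756 CPM per kb, and MYC 11.8, 12.2 and 44.2 CPM per kb in libraries 1, 2 and 3. In control libraries 1 and 2 MYC lay below MXD3 and MNT on this scale. The order depends on the length used: per kilobase of all exons joined, MXD3 and MNT were level in ENL (14.3 and 14.2 CPM per kb) and MYC (11.3) was above MAX (10.4). On that scale MYC, with 9.28 and 9.62 CPM per kb in control libraries 1 and 2, was above MXD3 (9.08 and 8.83) and MNT (8.60 and 8.83) in both.

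Lower in the order stood MXI1 with 10.1 ± 6.43 CPM per kb in ENL and 2.74 ± 1.29 in control, MXD4 with 6.32 ± 0.735 and 8.06 ± 0.387, and MYCL with 5.58 ± 0.737 and 1.74 ± 0.0855. MXD1 had 3.81 ± 1.77 CPM per kb in ENL and 0.914 ± 1.22 in control, MGA 2.20 ± 0.393 and 2.00 ± 0.104, and MYCN at most 0.0427 CPM per kb in any library. In ENL the ranges of MXD3 and MNT overlapped, as did those of MAX and MYC, of MXD4 and MYCL, and of MXD1 with MYCL and MGA. The wide range of MXI1 overlapped those of MAX, MYC, MXD4, MYCL, MXD1 and MGA. In control the levels of MGA and MYCL also lay close together, and MXI1 lay within 1 SD of MGA. The control range of MXD1, up to 2.32 CPM per kb in library 1, overlapped those of MGA, MYCL and MXI1.

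Summed per kilobase, the 3 MYC genes had 19.0, 20.4 and 20.4 CPM per kb in ENL, against 13.6, 13.9 and 45.9 in control. The 6 antagonists together had 82.3, 74.4 and 82.5 CPM per kb in ENL, against 49.7, 47.7 and 49.2 in control, so that their sum was higher in every ENL library. The log2 ratio of the MYC sum to the antagonist sum was -2.11, -1.87 and -2.02 in ENL, against -1.87, -1.77 and -0.10 in control. The group means differed by -0.75 with all libraries and by -0.18 without control library 3. Without that library the difference was -0.27 with all exons joined and -0.05 with no length correction.

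**Figure D4:**
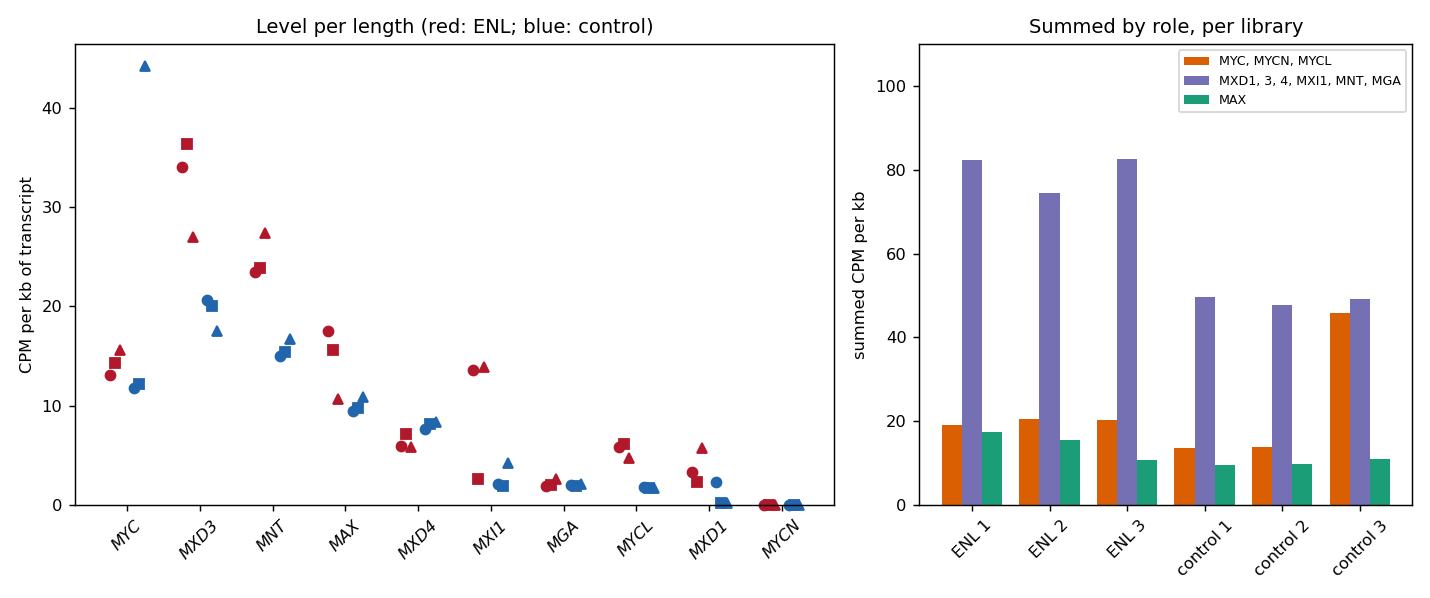
Left, CPM per kb of transcript for each member and library, ENL (red) left of control (blue), with symbols for libraries 1 to 3; right, the same values summed by role in each library. The antagonist sum is 74.4 to 82.5 in ENL and 47.7 to 49.7 in control, and the MYC sum is 45.9 in control library 3 against at most 20.4 elsewhere.

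In the MLX branch, MLX, the partner protein of that branch, had 90.4, 87.9 and 77.3 CPM in ENL, against 58.5, 62.1 and 59.4 CPM in control, a rise of 0.51 ± 0.09 on the log2 scale (adjusted p = 0.0048). MLXIP, also called MondoA, fell to 34.0, 32.3 and 37.7 CPM in ENL, against 65.2, 62.8 and 66.1 CPM in control (log2 fold change -0.90 ± 0.09, adjusted p = 0.000575). MLXIPL, or ChREBP, had at most 0.320 CPM and was not tested. The 2 tested genes of this branch went in opposite directions, and the groups did not overlap for either, beside 38.4% of all genes called and 54% not overlapping.

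Of the corepressor genes that MXD proteins and MNT recruit, 3 of 15 tested rose and 0 fell at an adjusted p below 0.05, with a median log2 fold change of 0.28. The share that rose, 20%, equals the 20% of all genes, whereas 18.4% of all genes fell. The share called in either direction was thus 20%, beside 38.4% of all genes. SAP30 and SAP18, subunits of the SIN3 complex, rose by 0.68 ± 0.12 and 0.42 ± 0.08, and ING1, a chromatin-reading subunit, by 0.81 ± 0.12. SIN3A itself had 69.5, 66.9 and 73.1 CPM in ENL, against 75.9, 71.5 and 55.1 CPM in control. Under scaling by library totals 4 fell, beside 3996 of all 14086 genes, and the call of SAP18 was lost (adjusted p = 0.0569). Without ENL library 2, 5 rose, beside 2482 of the 14448 genes tested there.

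Partners of MGA in its variant Polycomb complex split evenly, with 3 of 10 tested higher and 3 lower and a median of -0.04, or 60% called beside 38.4% of all genes. RYBP, which links the complex to chromatin, had 174, 160 and 198 CPM in ENL, against 74.0, 67.0 and 63.8 CPM in control (log2 fold change 1.38 ± 0.11, adjusted p = 0.000197). The E2F partner TFDP1 fell to 60.8, 80.5 and 70.3 CPM in ENL, against 144, 134 and 140 CPM in control (-0.98 ± 0.11, adjusted p = 0.000938). The ubiquitin ligase genes RING1 and RNF2 rose by 0.42 and 0.51, and L3MBTL2 and PCGF6, subunits particular to complexes of this kind, fell by 0.76 and 0.45 on the log2 scale. RNF2 lost its call without control library 1, 2 or 3 (adjusted p = 0.0504, 0.0539 and 0.0551), and PCGF6 without control library 1 or ENL library 2 (0.0718 and 0.0553). Under scaling by library totals, 1 partner was higher, beside 1804 of all 14086 genes.

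MYC coactivators had a median of -0.25, with 2 of 17 tested higher and 3 lower, or 29.4% called beside 38.4% of all genes. KAT5, the acetyltransferase also called TIP60, had 58.6, 49.6 and 58.2 CPM in ENL, against 23.6, 26.1 and 29.6 CPM in control (log2 fold change 1.07 ± 0.12, adjusted p = 0.000849). The helicase gene RUVBL1 fell by 0.70 and ACTL6A, an actin-related subunit of the same acetyltransferase complex, by 0.33 on the log2 scale. TRRAP, their scaffold, fell by 0.55 on the log2 scale (adjusted p = 0.0334), a call lost without control library 1, 2 or 3 or ENL library 1 or 2 (adjusted p = 0.0573 to 0.0998). CCNT1, the cyclin of the elongation factor P-TEFb, rose by 0.39 (adjusted p = 0.0345), a call lost without control library 1, 2 or 3 (0.0711, 0.116 and 0.0864). Without ENL library 3, 6 coactivators were lower, and under scaling by library totals 8, beside 2877 and 3996 of all genes.

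Genes that set the stability of MYC protein had 4 of 18 tested higher and 4 lower, with a median of -0.13, or 44.4% called beside 38.4% of all genes. AURKA, a kinase that shields MYCN from degradation, fell to 94.0, 92.0 and 93.0 CPM in ENL, against 163, 156 and 156 CPM in control (log2 fold change -0.77 ± 0.07, adjusted p = 0.000306). CIP2A, which protects MYC from a phosphatase, fell by 0.47, and the ubiquitin ligase gene FBXL14 by 0.96 from low levels. SET, another inhibitor of that phosphatase, rose by 0.43, the deubiquitinase gene USP28 by 0.41 and the kinase gene PLK1 by 0.33. FBXW7, the best known ubiquitin ligase for MYC, had 8.48, 17.7 and 22.2 CPM in ENL, against 21.4, 22.5 and 20.8 CPM in control, and was not called (adjusted p = 0.356). With a library left out, 2072 to 3156 of all genes were higher and 1743 to 2877 lower. In this list 1 gene was higher in place of 4 without control library 1, and 2 were without control library 2. Without control library 2, 1 was lower, and 2 without control library 3 or ENL library 1. The calls lost were those of CIP2A (adjusted p = 0.0579 without control library 2), USP28 (0.0503 without control library 1), FBXL14 (0.0627 to 0.0789 without control library 2 or 3 or ENL library 1 or 3) and PLK1 (0.0515 to 0.0755 without control library 1 or 2 or ENL library 2), among others.

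Genes known to be activated by MYC, most of them for ribosome assembly and growth, were higher in 10 and lower in 16 of 61 tested cases, or 42.6% called beside 38.4% of all genes. Their median log2 fold change was -0.15, and -0.02 for all genes. ODC1, the rate-limiting enzyme of polyamine synthesis, fell to 129, 133 and 125 CPM in ENL, against 227, 227 and 226 CPM in control (log2 fold change -0.82 ± 0.07, adjusted p = 0.000228). LDHA, lactate dehydrogenase A, fell by 0.93 and the replication helicase gene MCM4 by 0.46 on the log2 scale. NPM1, a nucleolar chaperone, rose by 0.70, the glycolytic enzyme gene HK2 by 0.70 and WDR74, of ribosome assembly, by 0.60. Without control library 1, control library 3 or ENL library 2 the number higher was 6, 5 and 6, and without control library 3 the number lower was 9. All genes numbered 2174, 2072 and 2482 higher in those fits, and 1743 lower without control library 3. Under scaling by library totals 5 genes of this list were higher and 31 lower, beside 1804 and 3996 of all 14086 genes.

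Genes known to be repressed by MYC were higher in 7 and lower in 3 of 14 tested cases, with a median log2 fold change of 0.94. This was 71.4% called, beside 38.4% of all genes. The cell cycle inhibitor CDKN1B, or p27, had 166, 137 and 148 CPM in ENL, against 40.6, 39.7 and 39.6 CPM in control (log2 fold change 1.91 ± 0.09, adjusted p = 3.701e-05). CDKN2B, or p15, rose by 1.67 ± 0.09, and TXNIP, a glucose-responsive arrestin that MLXIP also controls, by 1.96 ± 0.09. The other 4 that rose were GADD45A, GADD45B, CEBPA and CDKN1C. CDKN1A, or p21, the best known gene of this list, had 52.0, 50.3 and 46.2 CPM in ENL, against 45.9, 48.4 and 45.8 CPM in control (adjusted p = 0.473). NDRG1 fell by 0.60 on the log2 scale. ITGA6 fell by 1.18 on the log2 scale, and PDGFRB had a log2 fold change of -1.997. Both calls were lost without control library 1, 2 or 3 or ENL library 1 or 2, whereas the number higher was 7 with any library left out. PDGFRB had only 0.117, 0.176 and 0.241 CPM in ENL, against 0.492, 1.185 and 0.482 CPM in control. CDKN1C had 1.82, 2.25 and 1.78 CPM in ENL, against only 0.126, 0.2715 and 0.1765 CPM in control. The lower group of each lay near the floor of 12 units, so the calls of PDGFRB and CDKN1C rest on few fragments.

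MYC is itself induced early after growth stimulation, and 8 of 16 other immediate early genes were higher and 2 lower, with a median of 0.95, or 62.5% called beside 38.4% of all genes. IER3, an early gene tied to survival, had 54.6, 54.3 and 44.0 CPM in ENL, against 10.5, 10.9 and 10.6 CPM in control (log2 fold change 2.25 ± 0.12). NR4A1, an orphan nuclear receptor, rose by 2.32 ± 0.15 and JUNB by 1.51 ± 0.11, whereas EGR1 fell by 0.38 ± 0.07. FOSB fell by 0.52, a call lost without control library 1 or 3 or ENL library 1 (adjusted p = 0.0716, 0.0894 and 0.0564). In control library 3 the median of this list differed from the other controls by -0.01, with 8 of 16 genes above them. IER2 was higher there than in the other controls, at 208, 213 and 165 CPM in ENL against 25.9, 18.9 and 88.9 CPM in control.

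**Figure D5:**
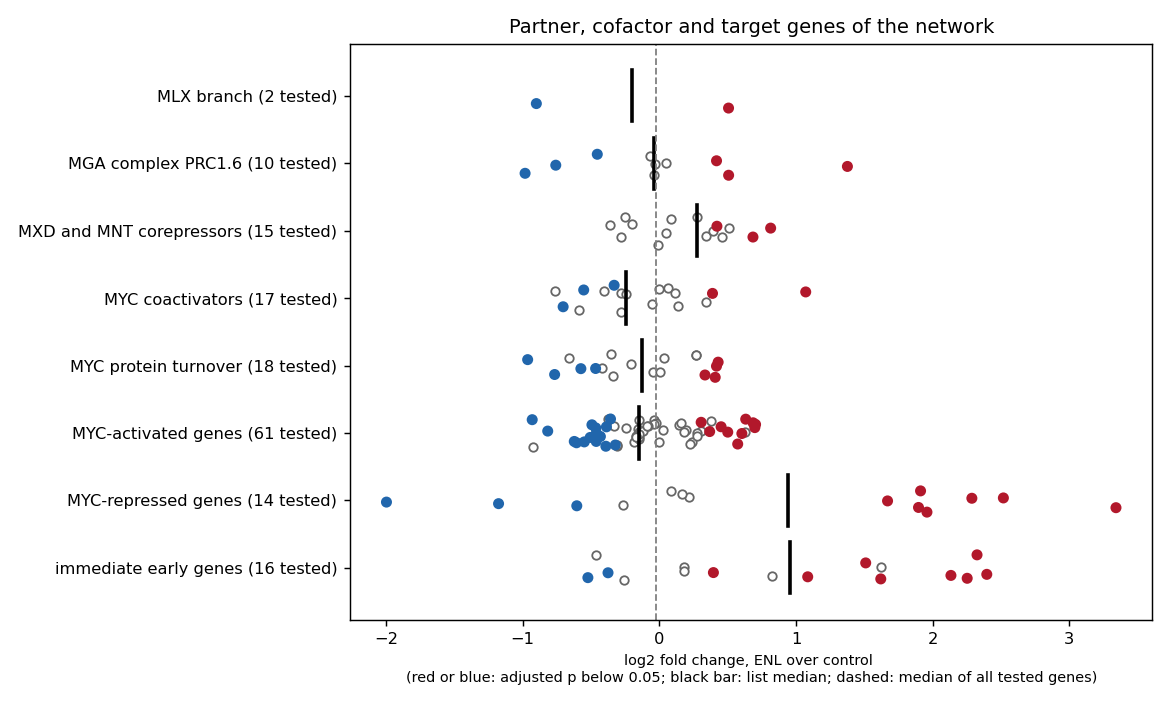
Log2 fold change (ENL over control) of every tested gene in 8 lists of network partners, cofactors and targets, red or blue where called, with a bar at the list median and a dashed line at the median of all tested genes (-0.02). The medians of the genes repressed by MYC (0.94) and of the immediate early genes (0.95) lie to the right, and those of the other lists between -0.25 and 0.28.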

How the data were processed

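The authors deposited 1 table of estimated counts per gene for 6 libraries. FastQC, STAR, StringTie and DESeq2 and the build hg38 appear in the submitters' processing notes, without versions or roles. Values are whole numbers, but 70.8% to 73.1% of those from 4 to 43 lie at a multiple of 4 or 1 above it, so low values carry more counting error than their size shows. Low genes were removed by filterByExpr (minimum count 10), libraries were scaled by TMM, and groups were compared two-sided with edgeR's quasi-likelihood test and Benjamini-Hochberg adjustment over all 14086 genes (R 4.3.3, edgeR 4.0.16, limma 3.58.1, DESeq2 1.42.0). Standard errors come from the F statistic. Replicate pairs differed far beyond sampling noise (chi-square per degree of freedom at least 19.4 with 4 units taken as 1 fragment), so all 6 libraries were counted.

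Members and lists were chosen with earlier results of these data known. Lists are described by counts and medians, without a set test. Named are all members, up to 3 genes per direction and list by adjusted p, and the 5 genes most like MYC; any further gene was picked with its values in view. Symbols were matched to GENCODE 29 (GRCh38). USP36 is not analysed here. Alternatives were other scalings, tools and filters, counts divided by 4, the replicate number as a block and each library left out; sums with overlapping genes were added after seeing the data.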

Additional observations from a re-analysis of the deposited data

How the results depend on the processing

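MYCL, MNT and MXD3 kept their direction and call under every alternative run. Results that changed were the following. MYC ranged from -0.97 to 0.26 (log2 fold change) with a library left out, 0.26 being without control library 3, and MGA was at -0.06 with library totals. With DESeq2's Wald test 5 members were higher, beside 3135 of all genes higher and 2926 lower. In that test 5 coactivators were lower, and 5 corepressors were higher and 1 lower. With no filter on low counts 0 members were lower, beside 2456 of the 17184 genes tested there. Under library totals 1804 genes were higher and 3996 lower; coactivators numbered 1 higher and 8 lower, corepressors 4 lower, partners of MGA 1 higher, turnover genes 1 higher and 7 lower, MYC-activated genes 5 higher and 31 lower, and immediate early genes 4 lower. Upper-quartile factors gave 2356 of all genes higher and 3136 lower. They gave 1 coactivator higher and 5 lower, 3 corepressors lower, 2 turnover genes higher and 4 immediate early genes lower. At least 10 CPM in 3 libraries gave 5 coactivators and 2 corepressors lower, limma-voom 1 corepressor lower, and counts divided by 4 gave 2. All genes lower numbered 2077 of 9551 tested, 2722 of 14086 and 2657 of 12873, in that order.

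Deviations of same-numbered libraries correlated at 0.03, 0.05 and 0.08, none over 0.1, so the numbers were not taken as pairs. ENL libraries 2 and 3 correlated best with their own number, and ENL library 1 with control library 2 (0.0322 against 0.03). With the replicate number as a block 2631 genes were higher and 2310 lower, 0 members lower (MXD4 adjusted p = 0.0583) and 1 corepressor lower.

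With each library left out in turn, all genes ranged from 2072 to 3156 higher and 1743 to 2877 lower, against 2819 and 2585 with all libraries. In these fits 3 to 4 members were higher and 0 to 1 lower. Coactivators ranged from 1 to 2 higher and 2 to 6 lower, corepressors from 3 to 5 higher and 0 to 1 lower, turnover genes from 1 to 4 higher and 1 to 5 lower, MYC-activated genes from 5 to 14 higher and 9 to 19 lower, MYC-repressed genes from 1 to 3 lower and immediate early genes from 1 to 3 lower. The cause of these changes was not tested. With 3 libraries a group, each value rests on few samples, and counts under about 12 units cannot be compared.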
